A study of Homo sapiens with 4 samples.

Results

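Open chromatin was examined at 8 genes of the p53 response and of apoptosis, CDKN1A, MDM2, BAX, BCL2L1, MCL1, GADD45A, PMAIP1 and BTG2. Every ATAC-seq peak that overlapped one of these hg19 loci, with 10 kb either side, was taken. The 8 windows covered 291 kb and held 7 of 23375 narrow peaks and 19 of 54673 broad peaks. All 8 loci had a broad peak in at least 1 library, whereas only BCL2L1, MCL1 and GADD45A had a narrow peak in any of the 4 libraries. By fold enrichment the GADD45A start was strongest where called, except in the broad list of control 2, where PMAIP1 was slightly higher. The MDM2 start was weaker than that of GADD45A. By broad pileup the start of BCL2L1 in control 2 was highest. No region at these loci was called in both libraries of one group and neither of the other. That pattern was rare over all regions too. It was held by 1.25% (test) and 1.25% (control) of narrow and by 1.03% (test) and 1.24% (control) of broad regions.

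The cells were OVSAHO, an established ovarian cancer line. ATAC-seq uses a transposase that cuts and tags accessible DNA. The test cells were labelled with stable SMARCA2 and knockdown of SMARCA4, given in the design as raised SMARCA2 and lowered SMARCA4 expression (OVSAHO-A2-siA4). The control cells were labelled WT (OVSAHO-Ctrl-siNC). SMARCA2 and SMARCA4 are the alternative ATPases of SWI/SNF chromatin remodelling complexes. All cells, of either group, had 25 µM carboplatin for 2 days, a DNA-crosslinking agent, so these loci were not seen in cells without the drug. There were 2 libraries per group, called control 1 and 2 and test 1 and 2. The labels do not say that they came from separate cultures, so a p-value covers only how far these particular samples differ, and that spread may be technical. The lists hold no expression values, so neither the cell type nor the change in SMARCA2 and SMARCA4 was checked.

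The p53 pathway answers DNA damage by switching on genes for cell cycle arrest, repair and cell death. CDKN1A encodes p21, an inhibitor of cyclin-dependent kinases, BTG2 is an antiproliferative gene, and GADD45A acts in growth arrest and repair. MDM2 encodes the ubiquitin ligase that limits the pathway. BAX is a pore-forming effector of mitochondrial apoptosis and PMAIP1 encodes NOXA, a BH3-only protein that promotes it. BCL2L1, which encodes BCL-XL, and MCL1 are the inhibitors of cell death in the set.

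Depth differed between libraries. Narrow peaks, called on nucleosome-free fragments, rested on 6146272 to 7531794 fragments in test 1, test 2 and control 2 and on 15828837 in control 1. Broad peaks, called on all fragments, rested on 22432549 to 31515662. Control 1 also had the shortest fragments of the broad lists, 131 bp on average against 178 to 182 bp.

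Promoter sequences are shown for the genes whose start was called in at least 2 libraries. The MDM2 calls overlap the printed stretch on both sides of the start. Those of BCL2L1 begin 3 bp after the start of its hg19 locus, so most of its stretch, with the motif matches, lies outside the calls. The printed start comes from another build and was not matched to the hg19 start base by base. RefSeq promoters were matched by symbol for 6 of the 8 loci, and MCL1 and GADD45A were not among them. The printed stretches are from GRCh38.p14, run from 250 bases before to 50 after the outermost start, and are given 5′ to 3′ on the gene's strand. Their coordinates are chr12:68807922-68808221 (plus strand) for MDM2 and chr20:31723914-31724213 (minus strand) for BCL2L1. Capitals mark matches on either strand to GGGCGG (the GC box), CCAAT or TATAAA.
MDM2: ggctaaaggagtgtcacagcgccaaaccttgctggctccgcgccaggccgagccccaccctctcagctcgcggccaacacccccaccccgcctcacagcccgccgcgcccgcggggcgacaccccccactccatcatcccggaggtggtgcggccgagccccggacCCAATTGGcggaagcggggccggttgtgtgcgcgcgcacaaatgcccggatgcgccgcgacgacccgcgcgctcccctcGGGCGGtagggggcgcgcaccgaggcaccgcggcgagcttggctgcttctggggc
BCL2L1: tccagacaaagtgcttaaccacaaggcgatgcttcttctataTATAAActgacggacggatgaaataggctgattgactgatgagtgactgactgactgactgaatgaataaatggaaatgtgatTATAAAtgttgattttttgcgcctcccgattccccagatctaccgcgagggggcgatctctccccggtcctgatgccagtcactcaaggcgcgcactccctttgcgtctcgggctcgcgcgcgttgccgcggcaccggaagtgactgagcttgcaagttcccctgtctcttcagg
The MDM2 promoter had 74.7% G and C, and that of BCL2L1 52.0%, against a median of 58.7% over 35116 RefSeq promoters. MDM2 held 1 GC box, which 45.0% of all promoters hold, and 2 overlapping CCAAT matches, 1 on each strand, which 34.6% hold at least once. BCL2L1 held 2 matches to TATAAA, found in 11.5% of promoters, at 208 and 125 bases before the start. Neither stretch matched TGANTCA (the AP-1 motif, in 7.71% of promoters) or the p53 decamer (in 6.63%), which says only that these letters are not in these windows.

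GADD45A gave the strongest calls by fold enrichment, except in the broad list of control 2, where PMAIP1 stood at 4.09. A narrow peak covered its start in test 2, with the authors' fold enrichment (pileup over local background) at 6.64, and in control 2 at 7.63. Test 1 and control 1 had no narrow peak there. The 2 calls merged to chromosome 1, 68150768 to 68150919, and stood at percentiles 69.9 and 80.9 of fold enrichment in their own lists. The broad region at the start, chromosome 1 from 68150684 to 68151306, was called in 3 libraries, with fold enrichments of 4.96 (test 1), 4.34 (test 2) and 4.01 (control 2). These are percentiles 77.9, 82.8 and 63.3 of the own lists. Control 2 had a further broad peak from 68152165 to 68152494, inside the gene, at a fold enrichment of 2.71. The open start was thus seen in both groups, and the library without it was control 1, whose nearest broad peak lay 43.5 kb away.

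MDM2 had a broad peak over its start in the same 3 libraries. The merged region was chromosome 12 from 69201552 to 69202121, from 419 bp before to 150 bp after the start of the locus. The MDM2 fold enrichment was 3.46 for control 2 and lay at 3.62 for test 2 and 3.83 for test 1. These peaks lay near the calling threshold, at a deposited −log10 q of 1.58 for control 2, 2.10 for test 2 and 2.03 for test 1, where the lists begin at 1.30 or 1.31. No library had a narrow MDM2 peak. The nearest narrow peak was 61.9 kb from the start in test 2 and 475.7 to 870.2 kb away in the other 3 libraries. Control 1 had its nearest broad peak at 107 kb.

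At the other p53 targets, calls were single. CDKN1A had 1 broad peak, in test 2, on chromosome 6 from 36646456 to 36646678, with a fold enrichment of 3.42. It lay 2219 to 2441 bp after the outermost start of the locus. CDKN1A is known to have a further start inside the locus that its main transcript uses, and distances to that start were not measured. The nearest broad peak to the outermost start lay 20.9 kb away in control 1, 129 kb in control 2 and 82.1 kb in test 1. BTG2 had 1 broad peak, in control 1, on chromosome 1 from 203265782 to 203266150, which is 8514 to 8882 bp before the start, at a fold enrichment of 3.26. Neither gene had a narrow peak in any library, and the nearest was at least 86.0 kb (CDKN1A) and 143 kb (BTG2) from the start.

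The 2 death-promoting genes had 1 broad peak each. PMAIP1 was called in control 2, on chromosome 18 from 57566870 to 57567148, which is 322 to 44 bp before the start. Its fold enrichment of 4.09 stood at percentile 66.4 of the list. In the other 3 libraries the nearest broad peak was 37.8 kb (control 1), 184 kb (test 1) and 186 kb (test 2) away. The BAX window held a broad peak in test 2, on chromosome 19 from 49468493 to 49469046, at a fold enrichment of 3.23. That peak began 3438 bp past the end of the locus, on the side of FTL, the ferritin light chain gene that comes next in RefSeq. The start of BAX therefore had no call in any list, and the nearest broad peaks lay 10.4 to 252 kb from it.

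Calls at the 2 inhibitors of cell death differed in kind. MCL1 had narrow peaks at its start in test 1 (chromosome 1, 150552126 to 150552210, fold enrichment 5.29) and in control 2 (150552128 to 150552228, fold enrichment 5.72). They stood at percentiles 33.1 and 48.1 of their lists, and no broad peak of the same library lay over them. The only broad MCL1 peak was in control 1, from 150553558 to 150553969, which is 1344 to 1755 bp before the start, at a fold enrichment of 3.42. The MCL1 start was thus called, from short fragments, in 1 library of each group.

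BCL2L1, the longest locus, held 3 narrow and 7 broad peaks. At its start, test 1 had a narrow peak on chromosome 20 from 30311417 to 30311487 with a fold enrichment of 4.74, inside a broad peak from 30311410 to 30311789 with 2.79. Control 2 had a broad peak from 30311287 to 30311789 with a fold enrichment of 3.19 and no narrow one there. The start was therefore called in 1 library of each group, over the first 505 bp of the hg19 locus and not over the bases before that locus. Control 2 alone had 4 further broad peaks and 2 narrow ones, among them a narrow peak inside a broad one upstream, from 30318687 to 30318804, with a fold enrichment of 5.54. The other narrow peak, from 30292440 to 30292582, lay 19.2 kb into the gene at 5.34 and had no broad peak over it. The single peak of control 1 lay at the far end of the gene, 58.8 kb from the start, with a fold enrichment of 2.73. Test 2 had no BCL2L1 peak of either type.

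Calls at gene starts came from both groups. Of the 26 peaks, 14 lay within 1 kb of the outermost start of 5 loci (MDM2, BCL2L1, MCL1, GADD45A and PMAIP1). Only outermost starts were counted, so these numbers do not say whether the inner start of CDKN1A was called. All 14 came from test 1, test 2 and control 2, which had 23 peaks at the loci. Control 1 had 0 of its 3 peaks within 1 kb of a start. The share of all peaks in each list that lie near a gene start was not counted, because an hg19 annotation was not used. Whether these counts are particular to the loci or to control 1 was therefore not tested. The nearest peaks outside that distance were the second GADD45A peak of control 2, at 1305 bp, and the MCL1 peak of control 1, at 1344 bp.

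The numbers of calls at these genes were compared between the altered SMARCA2 and SMARCA4 background and the controls, over libraries. Control 1 had 0 narrow peaks, control 2 had 4, test 1 had 2 and test 2 had 1. The group means were 2 ± 2.83 in control and 1.5 ± 0.707 in test libraries (SD over 2 libraries each, p = 1 by an exact two-sided permutation test). The broad lists gave 3 peaks for control 1, 9 for control 2, 3 for test 1 and 4 for test 2, with means of 6 ± 4.24 and 3.5 ± 0.707 (SD over 2 libraries each, p = 1 by an exact two-sided permutation test). With 2 libraries against 2 the smallest possible p is 0.333. In both peak types the 2 control libraries lay further apart than the group means, with control 2 above both test libraries and control 1 at or below them. BCL2L1 supplied 5 of the 9 broad peaks of control 2. Without control 1 the control excess was 2.5 narrow and 5.5 broad peaks, and without control 2 it was -1.5 and -0.5.

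In broad peaks the number of loci with a call was closer between libraries than the number of peaks. Narrow peaks touched 0 loci in control 1, 3 in control 2, 2 in test 1 and 1 in test 2. Broad peaks touched 3 loci both in control 1 and in test 1, and 4 both in control 2 and in test 2. The genes differed in part. The 3 of control 1 were BCL2L1, MCL1 and BTG2, each away from the start, and those of test 1 were MDM2, BCL2L1 and GADD45A, each at the start. Outermost starts with a broad peak numbered 0 for control 1, 4 for control 2, 3 for test 1 and 2 for test 2.

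**Figure D1:**
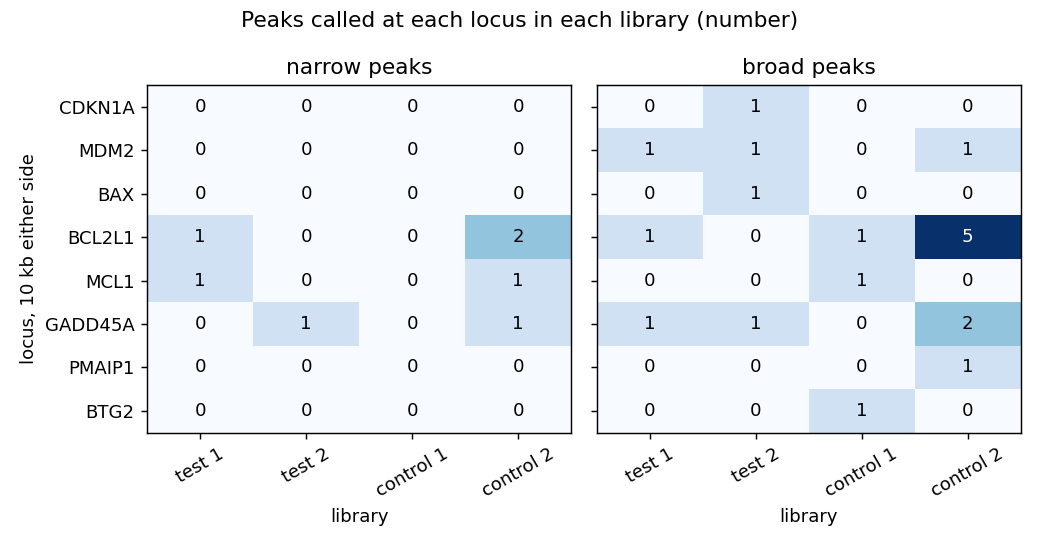
Number of narrow peaks (left) and broad peaks (right) at each locus (rows) in each library (columns), with darker cells for higher numbers. The highest number is 5, for broad peaks at BCL2L1 in control 2, and the narrow column of control 1 holds only 0.

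The 4 libraries were then merged, to ask which regions were open in one group only. The 7 narrow peaks formed 5 regions and the 19 broad peaks 14. None of the 5 narrow regions was called in both test libraries and no control library, or in both control libraries and no test library. Over all 17554 narrow regions these shares were 1.25% and 1.25%. None of the 14 broad regions was specific to a group by the same definition, against 1.03% and 1.24% of 36726 regions. Counts of 0 among 5 and 14 regions do not depart from shares that low.

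Most regions at the loci were called in a single library. That held for 3 of the 5 narrow regions (60%), against 80.7% of all narrow regions, and 11 of the 14 broad ones (78.6%), against 70.4%. The broad regions at the starts of MDM2 and GADD45A were the 2 of 14 called in 3 or 4 libraries (14.3%, against 15.7% of all). Their pattern, both test libraries and control 2 without control 1, was held by 10.5% of all broad regions, and in narrow peaks by 0 of 5 regions, against 3.82% of all. With BCL2L1, 3 of 14 broad regions were called in 2 or more libraries (21.4%, against 29.6% of all). The narrow regions at MCL1 and GADD45A were the 2 of 5 called in 2 libraries (40%), where 19.3% of all narrow regions were called in 2 or more, and 0 of 5 were called in 3 or 4 (9.27% of all).

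Peaks at the 8 loci made up a small share of each list. In narrow lists the share was 0.0588% in test 1 (95% exact Clopper-Pearson interval 0.00712 to 0.212), 0.0240% in test 2 (0.000607 to 0.134) and 0.0735% in control 2 (0.0200 to 0.188). Control 1 had 0 of 10360 narrow peaks, which allows a share of up to 0.0290% by the limit of 3 counts, and of up to 0.0356% by the exact two-sided interval used for the other libraries. In broad lists the share was 0.0162% for control 1 (0.00335 to 0.0474), 0.0674% for control 2 (0.0308 to 0.128), 0.0337% for test 1 (0.00696 to 0.0985) and 0.0287% for test 2 (0.00782 to 0.0734). All the broad intervals overlapped, and both limits of control 1 in narrow peaks lay inside the intervals of the other 3 libraries. The differences in share between libraries were not tested, and the intervals and limits cover counting error only. The windows are 0.0108% of the effective genome size used in calling, and held 0.0299% of narrow and 0.0348% of broad peaks. All windows were set around genes, and BCL2L1 alone held 3 of the narrow and 7 of the broad peaks. Windows around other genes were not counted, so whether these loci hold more peaks than other genes was not tested.

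By fold enrichment, most calls at the loci were weak within their lists. Fold enrichment ranged from 4.74 to 7.63 in the narrow and from 2.61 to 4.96 in the broad peaks. Only 2 of 7 narrow and 5 of 19 broad peaks were above the median fold enrichment of their own list. Both narrow ones were GADD45A, and the broad ones were GADD45A in test 1, test 2 and control 2, MDM2 in test 2 and PMAIP1 in control 2. Pileup ranked them otherwise, and all broad peaks but those of MDM2, BAX and PMAIP1 stood above the median pileup of their own list. The 2 narrow and 3 broad peaks with a −log10 q of at least 5 were all at the start of GADD45A, and 13 of the 19 broad peaks were under 2.5. A library without a call at a locus has no deposited value there, so a site just under the threshold cannot be told from a closed one.

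**Figure D2:**
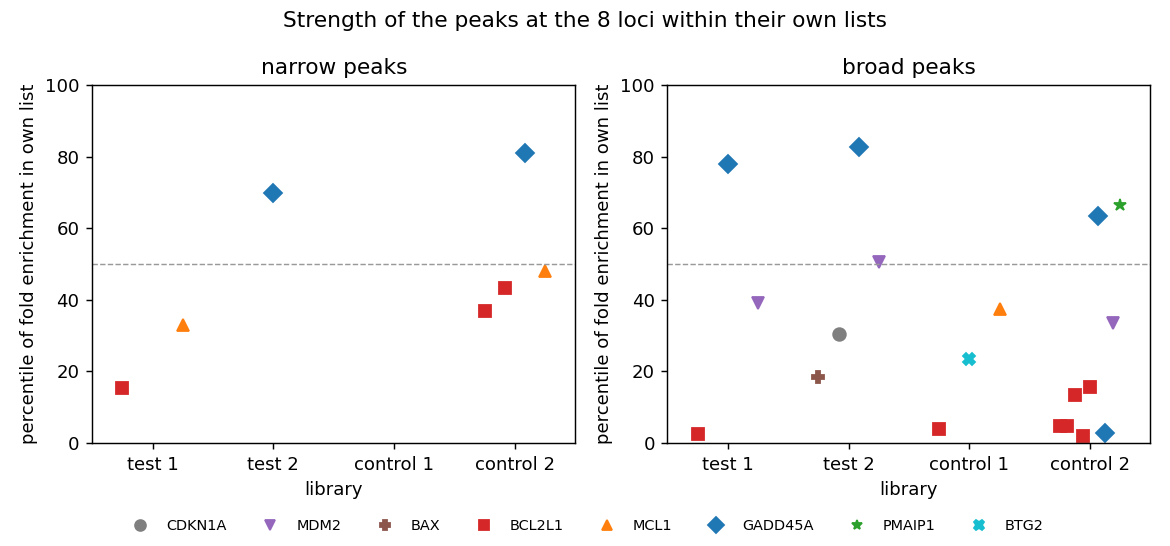
Percentile of the authors' fold enrichment within the library's own list (y axis) for each narrow peak (left) and broad peak (right) at the 8 loci, by library (x axis), with a symbol for each gene. The dashed line is the list median. GADD45A starts lie above it in each list where they were called, and BCL2L1 lies below it throughout.

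Fold enrichment and coverage ranked the genes differently, and the local background, by which the pileup is divided, also differed between them. The background was recovered for each peak from its pileup and fold enrichment, and is given relative to the genome-wide level of the library. In every list the lowest background lay just above that level (1.485 against 1.479 in the broad list of test 1). A ratio near 1 is therefore at the bottom of the range and may not measure the surroundings. At the MDM2 start the ratio was 1.003 for control 2, 1.06 for test 1 and 1.39 for test 2, and at PMAIP1 it was 1.04. At the GADD45A start the ratio was 3.23 for control 2, 2.26 for test 1 and 2.21 for test 2. The 7 broad BCL2L1 peaks ranged from 3.08 to 4.79, with the single peak of control 1 at 3.18, so the raised level was present in test 1, control 1 and control 2. The median over all broad peaks was 1.40 to 1.64, depending on the library.

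The contrast was clearest within control 2. The pileup at the BCL2L1 start, 28.46 fragments, was the highest of the broad peaks at the 8 loci and stood at percentile 92.2 of its list, while its fold enrichment of 3.19 stood at percentile 13.4. The MDM2 start had a pileup of 8.42, at percentile 6.55, and a fold enrichment of 3.46, at percentile 33.4. GADD45A was high on both measures, at a pileup of 25.26 (percentile 89.3). In narrow peaks the local background was 4.45 at the BCL2L1 start and 2.09 at the MCL1 start in test 1. In control 2 it was 2.75 and 3.45 at the BCL2L1 peaks, 3.16 at GADD45A and 2.19 at MCL1. The cause of the raised background at BCL2L1 and GADD45A was not tested.

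**Figure D3:**
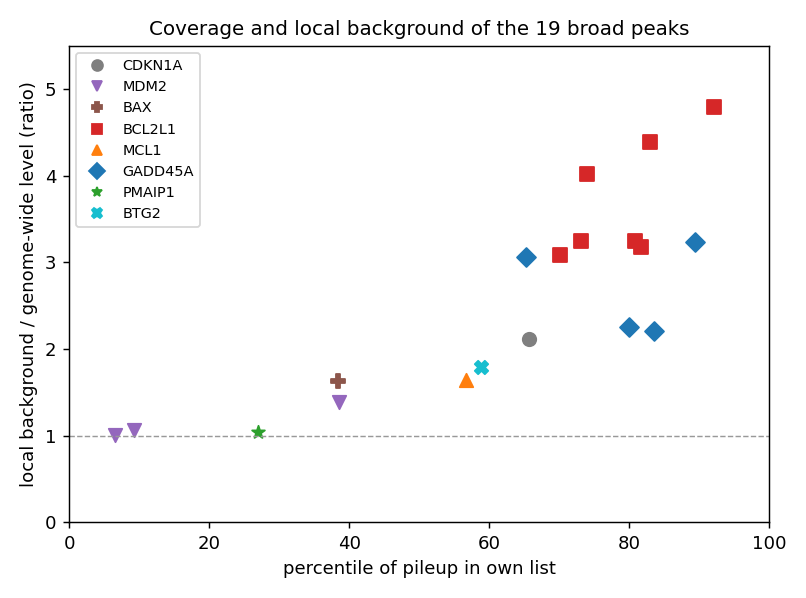
Percentile of pileup in the library's own list (x axis) against the local background relative to the genome-wide level (y axis, ratio) for the 19 broad peaks at the 8 loci, with a symbol for each gene. The dashed line marks the genome-wide level, below which no peak of the lists lay. PMAIP1 and the MDM2 peaks of test 1 and control 2 lie near 1 with low coverage, and the MDM2 peak of test 2 lies at 1.39. The 7 BCL2L1 peaks lie above 3 with high coverage, as do the 2 GADD45A peaks of control 2 (3.07 and 3.23).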

How the data were processed

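ATAC-seq peak lists of 4 OVSAHO libraries were used, a narrow and a broad list each, grouped by the sample titles. Per the submitters' processing notes, the build was hg19 and the tools included MACS2 2.2.7.1, Bowtie2 2.3.5.1, edgeR 3.34.1, cutadapt 3.2, Picard and deepTools 3.5.1, with no role given in the sources used here. Per the file headers, MACS2 called peaks in each library separately, from paired fragments with duplicates kept, no control sample, a q threshold of 0.05 and an effective genome size of 2.7e+09. The deposited pileup is a coverage signal in fragments. The fold enrichment the authors deposited is the ratio between pileup and a local background over 10000 bp. Deposited q values are given as −log10. None is normalized between libraries, so values were ranked within a list, and a deeper library can pass the threshold at weaker sites. Repeated fragments add to the pileup.

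Peaks of chromosomes 1 to 22 and X that shared 1 bp or more with a window were taken, and peaks of different libraries were merged where they shared 1 bp. Merging was tested on simulated data. Local background was (pileup + 1) divided by fold enrichment, minus 1, and the genome-wide level was fragments times mean fragment size over the effective genome size. The recovered background was not below the genome-wide level in any list. Numbers per library were compared by exact permutation over 6 assignments. All loci are named, with every region called in 3 or 4 libraries or in one group only. The other peaks given by position were chosen after their values were seen, as was 1 kb for a peak at a start. The loci and lists were chosen with earlier results of these data known. A planned count of other p53 targets was not run, because an hg19 annotation was not used here, and gene order and strand are from RefSeq (GRCh38.p14) and textbook knowledge. Software was matplotlib 3.10.9, scipy 1.17.1, pandas 2.3.3 and numpy 2.4.6 under Python 3.11.15.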

Additional observations from a re-analysis of the deposited data

How the results depend on the processing

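The control excess, 0.5 narrow and 2.5 broad peaks per library at the 8 loci, had no stable direction. In narrow peaks it was 0 at a −log10 q of 5 or more, with lists of equal length and without flanks, and ranged from -1.5 to 2.5 when 1 library was left out. In broad peaks it was -0.5 both at a −log10 q of 5 or more and with lists of equal length. It was 0.5 without flanks, and ranged from -0.5 to 5.5 when 1 library was left out. With 50 kb either side it was 2 in both, and per 1000000 fragments it was 0.0302 and 0.0728. The replicate numbers share no stated culture or batch. A replicate block gave the same 0.5 and 2.5 (exact sign-flip permutation p = 1 in both, smallest possible p 0.5). Regions called in one group only stayed at 0 under the other thresholds, windows and merging rules. The exception was lists of equal length, where 1 of 7 broad regions, at MDM2, was left in the test libraries alone, against 2.12% of all broad regions. Leaving out a library, where 1 call then defines a group, gave 0 to 2 narrow and 0 to 6 broad regions. The share of all regions in one group only then ranged from 1.60% to 60.3% (narrow) and from 1.56% to 45.6% (broad), by group and library left out. The highest counts were without control 1, where 2 of 5 narrow and 6 of 11 broad regions were in control 2 alone, against 33.1% and 24.4% of all regions. Counting 2 kb around an outermost start was added after the data were seen. It put 16 peaks at the same 5 starts in place of 14, and 1 in place of 0 for control 1. The counts rest on 0 to 9 peaks per library and list.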
